A study of Mus musculus with 6 samples.

Results

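The cartilage and otic capsule genes are 32 genes, chosen by name for their roles in making cartilage, among 18193 genes with a probe set on the array. They comprise genes of early condensation (9, namely transcription factors, a ubiquitin ligase and a marker collagen), genes of the later cartilage and bone matrix (19) and enzymes that build and sulfate the sugar chains of cartilage proteoglycans (4). For 30 of them at least 1 probe set was listed with that gene alone, 64 probe sets in all, and no values are given here for the other two, Runx2 and Xylt1. The samples are 6 one-colour Affymetrix arrays of mouse embryos dissected at E11.5, 3 from Mest-KO pools and 3 from control pools. Each pool joined the left and right ears of 3 embryos of 1 genotype, taken as the otic vesicle (the sac of epithelium from which the inner ear grows) and its periotic mesenchyme. Mest-KO pools came from T-Cre conditional Tbx1 knockouts and control pools from T-Cre conditional Tbx1 heterozygotes, so that both carried T-Cre and the control is itself short of a Tbx1 copy where the Cre acted. T-Cre acts in mesoderm, so the otic epithelium is not its target, and the study compared this tissue with and without mesodermal Tbx1.

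The otic capsule is the cartilage shell that forms from periotic mesenchyme around the growing inner ear. Cartilage starts as a condensation of mesenchymal cells in which the transcription factor Sox9 switches on cartilage genes together with its partners Sox5 and Sox6. The cells then lay down a matrix of type II, IX and XI collagen and of the large sulfated proteoglycan aggrecan, which link protein holds on hyaluronan. Several of these genes have other sources in this dissection: Sox9, Col2a1 and Col9a1 are also made in otic epithelium, Sox5, Sox6 and Sox9 in the neural tube, and Runx3 in sensory neurons. In pooled tissue, fewer cells of a type and less RNA per cell cannot be told apart.

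Markers of the labelled tissue were present on the arrays, as were those of other tissues. All 12 otic epithelium markers and all 10 periotic mesenchyme markers with a probe set were above background on at least 1 array. Background is the highest intensity of the unspiked bacterial probe sets, 11.2. All 8 skeletal muscle and all 6 macrophage markers passed the same mark, so it does not tell the dissected tissue from others. Tbx1 itself averaged 502.8 ± 85.4 in Mest-KO and 512.8 ± 61.1 in control (SD, n = 3 each), a log2 difference of -0.03 ± 0.14 (SE; limma, adjusted p = 0.967), which does not check the labels: otic epithelium is known to make Tbx1 as well, and the place of its probes relative to the deletion is not known here. Control 2 stood apart from the other two control arrays in neural tube markers, which can enter with the hindbrain beside the ear. Relative to the mean of the 6 arrays, the mean log2 intensity of the 12 neural tube markers tested was -0.66, -0.08 and -0.84 in Mest-KO 1, 2 and 3 and 0.87, -0.23 and 0.94 in control 1, 2 and 3. The summed intensity of the 14 with a probe set was 8005 to 10683 in Mest-KO and 9306 to 12668 in control, with Olig2 at or below background on every array. Of the 12 tested, 10 were lower in Mest-KO, 7 of them at an unadjusted p under 0.05 (limma), where 3.24% of all genes tested were. The list was chosen with earlier results of these data known, so this count is a description and no test of neural tube tissue. Among the 12, Skor1 passed over all genes (limma, adjusted p = 0.0256). Of the 10 periotic mesenchyme markers, 7 were lower in Mest-KO and 3 higher. At an unadjusted p under 0.05 (limma), 3 were lower (Tbx15, Pou3f4 and Prrx2) and 1 higher, where 3.24% and 5.73% of all genes were. The higher one, Meox1, passed over all genes (1.15 ± 0.18; limma, adjusted p = 0.0433). The periotic list too was chosen with earlier results known.

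Of the 32 genes, 26 were bright enough to be tested, and none of the 26 passed the test between Mest-KO and control. The count at an adjusted p under 0.05 was 0 of 26 (limma, Benjamini-Hochberg over all 14170 genes tested), where 0.148% of all genes passed, 12 higher and 9 lower in Mest-KO (22 higher and 56 lower with arrays centred on their medians). At an unadjusted p under 0.05 it was also 0 of 26, against 5.73% of all genes higher and 3.24% lower. The 3 Mest-KO arrays overlapped the 3 control arrays for each of the 26, whereas they lay wholly above control for 9.32% of all genes and wholly below for 5.22%. The median log2 difference of the 26 was -0.05, with 9 higher and 17 lower, beside a median of 0.01 over all genes tested. Log2 differences here are Mest-KO minus control on log2(intensity + 16), which understates changes of dim genes.

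The intervals bound the differences on the log2(intensity + 16) scale. For 19 of the 26 genes the 95% interval of the difference lay inside a 1.5-fold change in either direction, as it did for 79.7% of all genes, and for 25 of 26 inside a 2-fold change. The 7 whose interval reached past 1.5-fold were Acan, Papss2, Matn4, Susd5 and Epyc on the lower side and Scrg1 and Col11a2 on the higher side, and Acan alone reached past 2-fold. With a pseudocount of 4, which compresses dim genes less, 11 of 27 genes reached past 1.5-fold, with Comp, Ibsp, Matn1 and Matn3 added, and Acan and Matn4 past 2-fold. The narrowest interval was that of Col2a1, from -0.12 to 0.18.

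**Figure D1:**
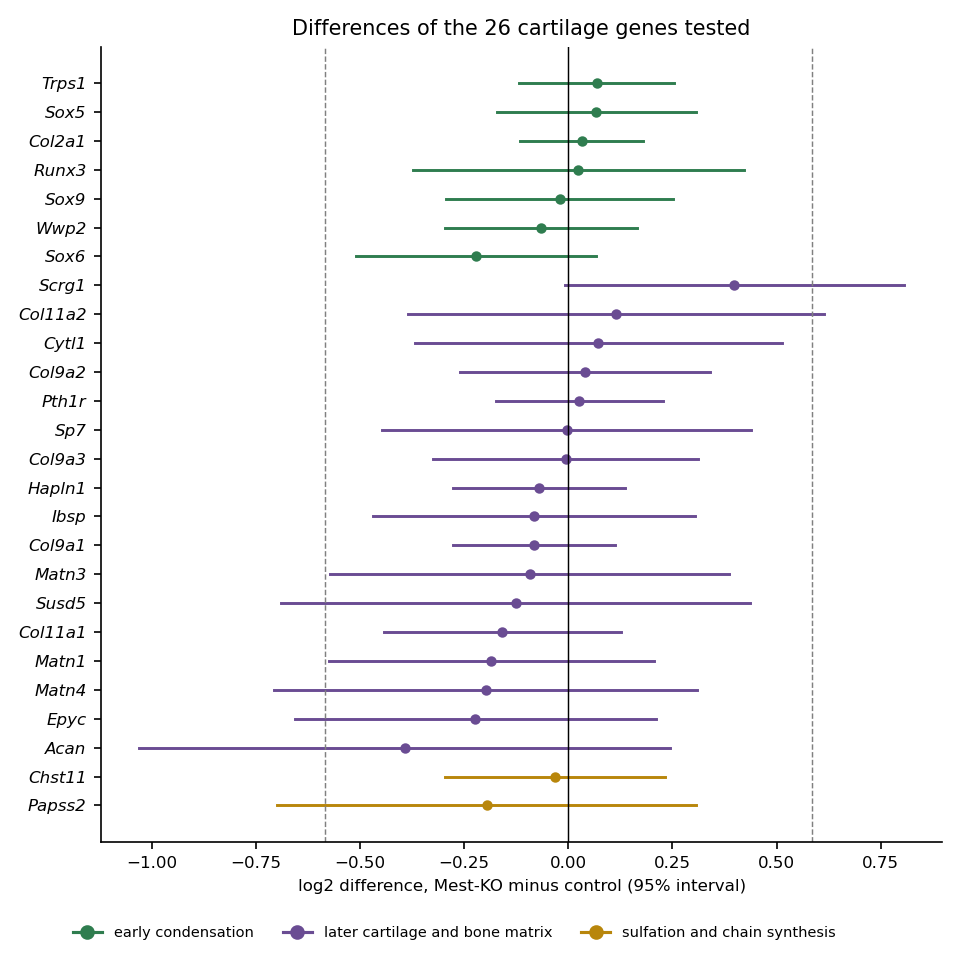
Log2 difference (Mest-KO minus control, horizontal axis) of the 26 cartilage genes tested, with the 95% interval of the limma fit as a line and the dashed lines at 1.5-fold. Every interval crosses 0, and with this pseudocount of 16, 19 of the 26 lie between the dashed lines.

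Among the genes of early condensation, Sox9, the factor without which no cartilage forms, read 2489, 2893 and 3392 in Mest-KO 1, 2 and 3 and 3046, 3320 and 2521 in control 1, 2 and 3. Each group spanned almost the same range. The log2 difference was -0.02 ± 0.12 (SE; limma, adjusted p = 0.979; exact permutation p = 0.9, where 3 against 3 arrays cannot give less than 0.1). A dimmer probe set of Sox9 differed by 0.10 ± 0.17 with overlap. Sox5, its partner, read 483.2, 474.2 and 470.8 in Mest-KO and 415.0, 466.8 and 482.4 in control, with control 1 the low array, and its difference was 0.07 ± 0.11. Its dimmer probe sets that could be tested differed by -0.20 ± 0.16, -0.16 ± 0.19, -0.11 ± 0.17 and 0.15 ± 0.21, each with overlap. With the mean of all its probe sets the difference of Sox5 was -0.11 ± 0.11 (limma, adjusted p = 0.809). Col2a1, encoding the main collagen of cartilage and turned on by Sox9 in condensing mesenchyme, read 3967, 3618 and 3679 in Mest-KO and 3720, 3532 and 3759 in control. The groups overlapped throughout, and the difference was 0.03 ± 0.07 (limma, adjusted p = 0.928).

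Sox6 had the largest difference among the 7 early genes tested, and its probe sets differed in size and in overlap. The brightest, which represented the gene, read 610.5, 447.6 and 502.9 in Mest-KO and 619.5, 551.3 and 646.3 in control. Mest-KO 1 lay within the control range and the other two arrays below it, and the difference of -0.22 ± 0.13 did not pass (limma, adjusted p = 0.650). Another probe set read 350.1, 327.6 and 372.2 in Mest-KO and 534.7, 521.3 and 400.6 in control, so that all 3 Mest-KO arrays lay below all 3 control arrays. Its difference was -0.45 ± 0.14 (limma over all probe sets, unadjusted p = 0.00736, adjusted p = 0.315). One more, of the kind whose probes may match other transcripts too, read 157.9, 135.6 and 131.8 in Mest-KO and 212.3, 170.5 and 188.7 in control, again without overlap (-0.39 ± 0.15, unadjusted p = 0.0227, adjusted p = 0.420). The dimmest differed by -0.25 ± 0.20 with overlapping groups. All 4 were thus lower on average in Mest-KO, and with the mean of all 4 in place of the brightest the difference of Sox6 was -0.33 ± 0.11 (limma, unadjusted p = 0.0165, adjusted p = 0.390).

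Trps1, encoding a zinc finger repressor of condensing and growth plate cartilage, also split by probe set. The brightest read 1695, 1738 and 1629 in Mest-KO and 1523, 1748 and 1563 in control, with overlap (0.07 ± 0.08). The dimmest read 242.5, 187.2 and 180.3 in Mest-KO, all above the 157.9, 142.9 and 139.3 of control (0.42 ± 0.15; limma over all probe sets, unadjusted p = 0.0182, adjusted p = 0.398). Its other two differed by -0.06 ± 0.09 and -0.18 ± 0.15, in the opposite direction, with overlapping groups. Over the 51 of the 64 probe sets that were bright enough, 0 passed at an adjusted p under 0.05, where 0.0666% of the 31526 probe sets fitted did. At an unadjusted p under 0.05, 1 was higher (6.61% of all probe sets were) and 2 were lower (3.09% were), which are the 3 just described.

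**Figure D2:**
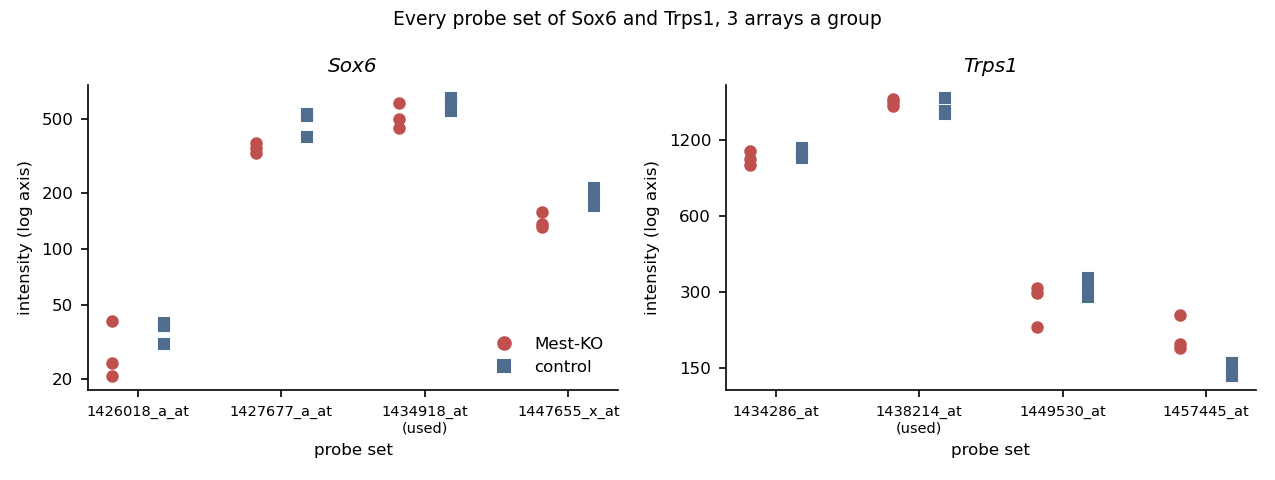
Intensity (log axis) of every probe set of Sox6 and Trps1 on each array, Mest-KO as circles left of control as squares. For Sox6, 2 probe sets other than the one used separate the groups downward in Mest-KO, and for Trps1 the dimmest separates them upward.

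The other early genes tested differed by under 0.1 in size with the brightest probe set, and more with some dimmer ones. Wwp2, encoding a ubiquitin ligase that is turned on by Sox9, averaged 873.0 ± 43.7 in Mest-KO and 916.4 ± 98.5 in control (SD, n = 3 each), a log2 difference of -0.06 ± 0.10. A dimmer probe set of Wwp2 differed the other way, by 0.39 ± 0.24 with overlap (153.1 in Mest-KO and 115.9 in control on average). The other dimmer probe sets of Wwp2 that could be tested differed by -0.12 ± 0.16 and -0.16 ± 0.19, in the direction of the brightest, each with overlap. Runx3, a runt-domain factor of cartilage maturation and of sensory neurons, averaged 42.1 ± 7.77 in Mest-KO and 41.1 ± 7.55 in control (0.02 ± 0.18). Its second probe set was too dim to be tested and read 2.35, 2.93 and 2.18 in Mest-KO, below background on each array, and 18.6, 5.79 and 10.4 in control, above background on control 1 alone. With the mean of both probe sets the difference of Runx3 was -0.26 ± 0.16 (limma, adjusted p = 0.632). Nkx3-2, encoding a homeobox repressor of somite and jaw cartilage, was not above background on any of the 6 arrays. For the 7 early genes tested, 4 were higher and 3 lower, and the median log2 difference was 0.02.

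The collagens of the later matrix overlapped between the groups, and none passed the test. Col9a1, which with Col9a2 and Col9a3 encodes the type IX collagen that coats cartilage fibrils, read 4645, 4253 and 3730 in Mest-KO and 4488, 4105 and 4749 in control. Mest-KO 3 was the lowest array, and the difference was -0.08 ± 0.09 (limma, adjusted p = 0.840). Col9a3 read 1100, 951.7 and 721.6 in Mest-KO and 996.0, 833.7 and 921.5 in control, so that both the highest and the lowest array were Mest-KO (-0.01 ± 0.14). Col9a2 had the same lowest array and differed by 0.04 ± 0.14. Col11a1, encoding a chain of the fibril-nucleating type XI collagen, read 1378, 1166 and 937.6 in Mest-KO and 1234, 1245 and 1368.5 in control (-0.16 ± 0.13, adjusted p = 0.771). The low value was once more Mest-KO 3, and without that array the difference was -0.01 ± 0.11, whereas without Mest-KO 1 it was -0.29 ± 0.12 (unadjusted p = 0.0346, adjusted p = 0.701). Col11a2, another chain of type XI collagen, was dim at 30.1 ± 6.77 in Mest-KO and 27.5 ± 13.1 in control.

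**Figure D3:**
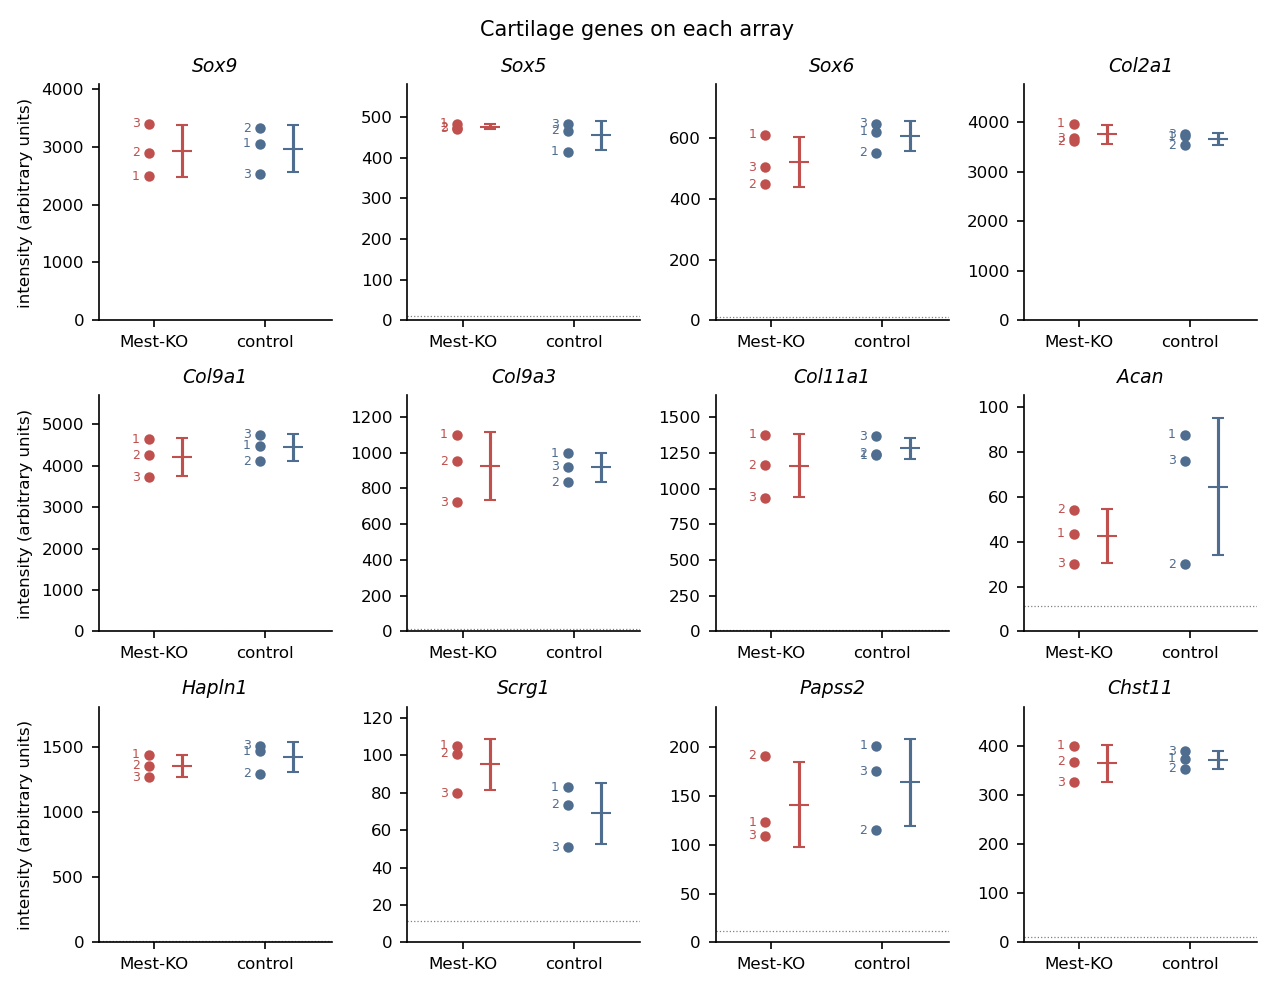
Intensity (arbitrary units, axes from 0) of 12 cartilage genes on each array, Mest-KO left of control. Points carry the replicate number, the bar beside them is the mean ± SD of 3 arrays and the dotted line is the background of 11.2. In every panel the 2 groups overlap.

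Acan, encoding aggrecan, had the most negative difference of the 26 and the widest interval. It read 43.6, 54.4 and 30.3 in Mest-KO and 87.8, 29.9 and 76.2 in control. Control 1 and control 3 were high and control 2 as low as the lowest Mest-KO array, so the difference of -0.39 ± 0.29 did not pass (limma, adjusted p = 0.739; exact permutation p = 0.4). These are the same 2 control arrays that were high in neural tube markers. The 3 highest arrays for Acan were control 1, control 3 and Mest-KO 2, which are also the 3 highest for the neural tube list. With the neural tube mean as a covariate the difference of Acan was 0.53 ± 0.26 (unadjusted p = 0.0673), without control 2 it was -0.76 ± 0.21 (unadjusted p = 0.00469, adjusted p = 0.201), and without any 1 of the other 5 arrays it stayed negative, from -0.53 to -0.17. Without control 1 and control 3, a setting chosen after seeing the data, it was 0.33 ± 0.29, a sign fixed by the choice, since control 2 lay below all Mest-KO arrays. The neural tube mean itself differed between Mest-KO and control, so with 3 arrays a group this covariate and genotype overlap. No difference fitted with the covariate, here or below, can be read as freed of neural tube tissue. The part of neural tube tissue in the Acan values was not tested.

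Papss2, the enzyme that makes the activated sulfate for proteoglycan chains, ran over the arrays as Acan did. It read 123.0, 190.8 and 109.3 in Mest-KO and 201.0, 114.5 and 175.1 in control, high again on control 1, control 3 and Mest-KO 2. Its difference was -0.20 ± 0.23 (limma, adjusted p = 0.855), or 0.50 ± 0.23 with the neural tube covariate (unadjusted p = 0.0508). Epyc, encoding the small leucine-rich proteoglycan epiphycan, Matn4, encoding a matrilin that links matrix fibrils, and Wwp2 had the same 3 arrays highest. Thus 5 of the 26 genes had the same 3 highest arrays as the neural tube list, in any order, against 7.05% of all genes. Both the members and that list were chosen with earlier results of these data known, so this count is a description. Epyc averaged 100.4 ± 22.6 in Mest-KO and 119.6 ± 25.5 in control (SD, n = 3 each; -0.22 ± 0.20).

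The remaining matrix genes did not separate the groups. Hapln1, encoding the link protein that ties aggrecan to hyaluronan, read 1443, 1359 and 1268 in Mest-KO and 1471, 1296 and 1512 in control, which overlapped (-0.07 ± 0.09, adjusted p = 0.875). Its other 3 probe sets differed by -0.34 to -0.08, each with overlap. Among the matrilins, Matn1 averaged 25.1 ± 3.51 in Mest-KO and 30.8 ± 6.02 in control, Matn3 93.4 ± 34.96 in Mest-KO and 96.7 ± 6.46 in control, and Matn4 17.5 ± 8.44 in Mest-KO and 21.9 ± 5.89 in control (SD, n = 3 each). The larger spread of Matn3 in Mest-KO came from 129.2 on Mest-KO 2 and 59.3 on Mest-KO 3. These Matn3 values come from a probe set whose probes may match other transcripts too. A dimmer probe set of Matn3 differed by -0.01 ± 0.18 with overlap. Comp and Chad, encoding matrix proteins of mature cartilage, were too dim to be tested. Comp read 7.27 to 15.97 in Mest-KO and 12.4 to 17.5 in control, and Chad 8.54 to 13.05 in Mest-KO and 0.624 to 11.5 in control, both around background.

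Scrg1, a small secreted protein of mesenchymal and cartilage cells, had the smallest p of the 26. It read 105.0, 100.8 and 79.6 in Mest-KO and 82.7, 73.4 and 50.9 in control. The groups overlapped only where Mest-KO 3 lay below control 1. The log2 difference was 0.40 ± 0.18 and did not pass (limma, unadjusted p = 0.0542, adjusted p = 0.564; exact permutation p = 0.2). By unadjusted p it ranked 1359 of the 14170 genes tested. Over all 18 other settings it stayed positive, from 0.23 to 0.52, with an unadjusted p under 0.05 in 6 and an adjusted p never under 0.476.

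The receptor and the genes of cartilage and bone maturation gave small differences. Pth1r, the receptor through which parathyroid hormone-related protein holds back cartilage maturation, averaged 1976 ± 86.3 in Mest-KO and 1945 ± 196.2 in control (SD, n = 3 each; 0.03 ± 0.09). Cytl1, a secreted cytokine-like protein of cartilage, averaged 181.7 ± 34.0 in Mest-KO and 174.0 ± 47.6 in control (0.07 ± 0.20). Susd5, whose product is predicted to bind hyaluronan, averaged 75.6 ± 30.3 in Mest-KO and 80.9 ± 18.4 in control, with Mest-KO 3 lowest at 40.8. The bone genes were dim, but with the brightest probe set above background on every array. Sp7, encoding the osteoblast factor osterix, averaged 53.8 ± 7.13 in Mest-KO and 55.3 ± 18.7 in control, and Ibsp, encoding bone sialoprotein, 15.8 ± 2.903 in Mest-KO and 17.6 ± 2.37 in control. A second probe set of Ibsp read 0.322 to 3.43, below background on every array, so its detection rests on a single probe set near background. For the 17 later matrix genes tested, 5 were higher and 12 lower, with a median of -0.08.

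Of the chondroitin sulfotransferases, Chst11 could be tested and Chst3 could not. Chst11, which adds sulfate to chondroitin, read 399.9, 367.0 and 325.5 in Mest-KO and 373.1, 352.9 and 388.9 in control (-0.03 ± 0.12, adjusted p = 0.964). Chst3, another chondroitin sulfotransferase, read 0.634, 7.89 and 4.68 in Mest-KO and 6.84, 0.428 and 6.44 in control, never above background, and no fold is given.

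One array stood low in the later matrix genes. Mest-KO 3 was the lowest array for 9 of the 17 later matrix genes and for both sulfation genes tested, against 0 of 7 early genes and 19% of all genes. The mean of the later matrix genes relative to the 6 arrays was 0.09, 0.07 and -0.24 in Mest-KO 1, 2 and 3 and 0.06, -0.06 and 0.08 in control 1, 2 and 3. The other 5 arrays lay within -0.06 to 0.09. Without Mest-KO 3 the median difference of the later matrix genes was 0.0016, against -0.08 with it, and without control 1 and control 3 it was 0.058. The early genes stayed within -0.02 to 0.01 in Mest-KO and -0.02 to 0.03 in control. Mest-KO 3 was also the lowest array for the neural tube list (-0.84), notochord and floor plate markers (-0.39), the other cartilage and growth plate matrix genes (-0.20) and osteoblast markers (-0.17). The erythroid markers were lowest there as well, at -0.49, against 0.35 and -0.10 on Mest-KO 1 and 2 and 0.0043 to 0.20 in control, with summed intensities over the 5 genes of 17797 to 22014 in Mest-KO and 19561 to 21483 in control and Hba-a1 at or below background. Mest-KO 3 was in turn the highest of the 6 arrays for otic epithelium (0.09), sensory neuron (0.17) and blood endothelium markers (0.10). Sensory neuron markers were also at 0.15 and 0.11 on Mest-KO 1 and 2, all above the -0.23 to -0.08 of control. Blood endothelium markers were at -0.02 and 0.10 on Mest-KO 1 and 2 and -0.12 to -0.03 in control. Otic epithelium markers were at -0.05 and -0.16 on Mest-KO 1 and 2 and 0.02 to 0.05 in control. Periotic mesenchyme markers were not at an extreme on Mest-KO 3, at -0.02, with -0.14 and 0.03 on Mest-KO 1 and 2. In control they ran from -0.0017 to 0.09. The part of these tissues in the matrix values was not tested.

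**Figure D4:**
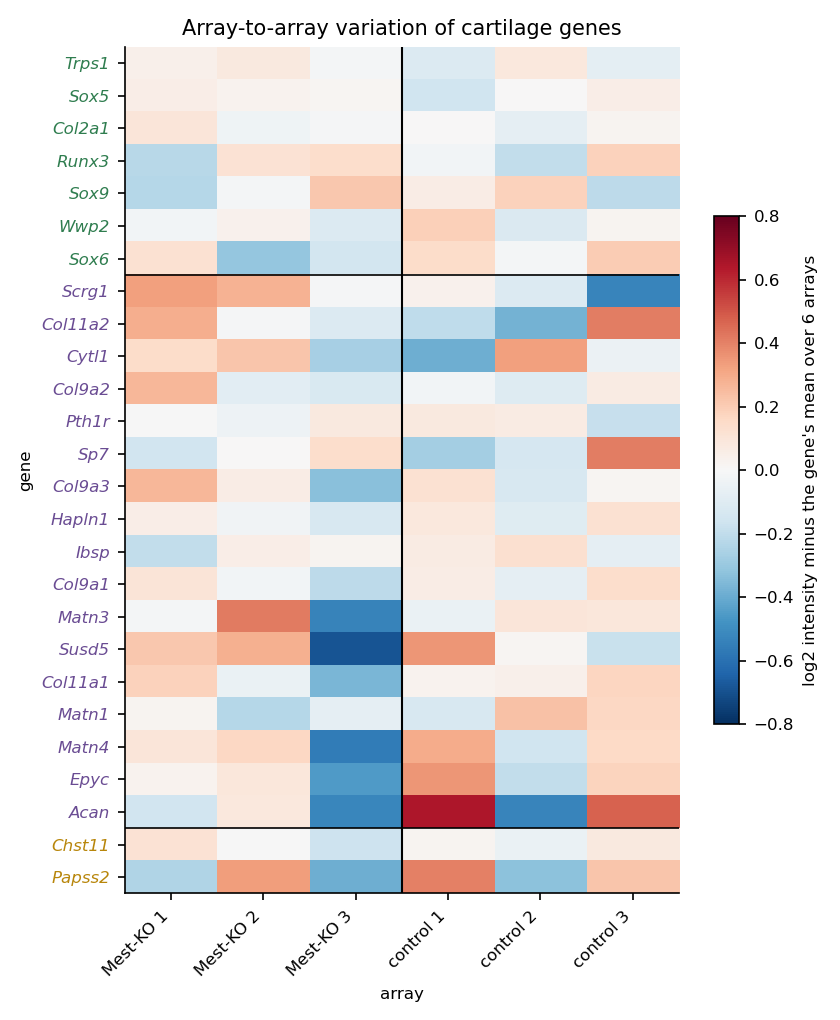
Log2 intensity of each of the 26 genes minus its mean over the 6 arrays (colour scale), genes in rows by group (green early condensation, purple later matrix, gold sulfation) and arrays in columns, Mest-KO left of control. Mest-KO 3 is blue in most later matrix genes, and Acan and Papss2 are red on control 1 and control 3 and blue on control 2.

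**Figure D5:**
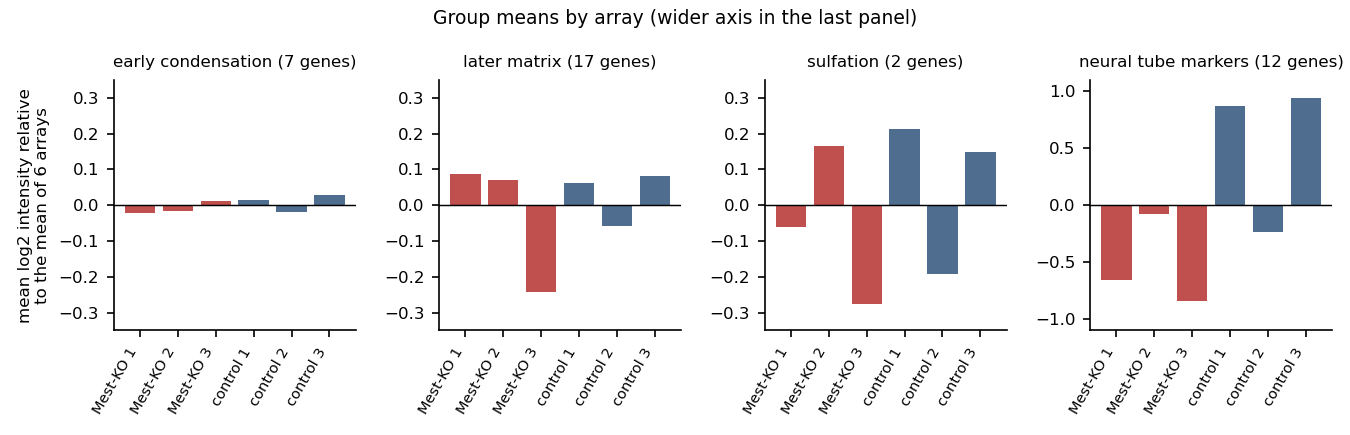
Mean log2 intensity of each group of genes on each array, relative to the mean of the 6 arrays (bars, Mest-KO red, control blue). The early genes stay within 0.03 of 0, the later matrix genes dip to -0.24 on Mest-KO 3, and the neural tube markers, on a wider axis, split control 2 from control 1 and control 3.

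Other genes of cartilage formation, taken from 3 lists, gave no call in any list (limma, adjusted p under 0.05). Of 22 further regulators of chondrogenesis tested, 1 was higher and 3 lower at an unadjusted p under 0.05 (5.73% and 3.24% of all genes were), and the median difference was 0.0027. Pax1, a paired-box factor of sclerotome and of pharyngeal pouch endoderm, read 76.1, 82.3 and 149.7 in Mest-KO, all below the 491.4, 192.8 and 286.9 of control (-1.47 ± 0.30, adjusted p = 0.130). Prrx2, a homeobox gene of craniofacial mesenchyme, also had groups that did not overlap (641.2 ± 63.2 in Mest-KO and 791.9 ± 46.7 in control; -0.30 ± 0.11, adjusted p = 0.417). Fgfr3, a receptor that restrains cartilage growth and is made in neural tube as well, averaged 221.1 ± 35.7 in Mest-KO and 359.7 ± 117.1 in control, and control 2 at 228.2 lay among the Mest-KO arrays (-0.62 ± 0.22, adjusted p = 0.417). Ncam1, a cell adhesion molecule of condensations and of neurons, was the higher one (0.14 ± 0.06, adjusted p = 0.500). Its Mest-KO arrays all lay above control, as did those of 3 other regulators tested (Mef2c, Snai2 and Arid5a), so that 4 of the 22 separated upward and 2 downward, where 9.32% and 5.22% of all genes did.

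Of 21 other matrix genes tested, 0 were higher and 3 lower at an unadjusted p under 0.05 (5.73% and 3.24% of all genes were), with a median of -0.04. Mgp, encoding an inhibitor of mineral deposition, read 282.4, 318.9 and 368.0 in Mest-KO, all below the 814.7, 528.5 and 457.8 of control (-0.83 ± 0.19, adjusted p = 0.179). Col12a1, a fibril-associated collagen of connective tissue, averaged 200.9 ± 48.2 in Mest-KO and 323.7 ± 16.6 in control (-0.67 ± 0.17, adjusted p = 0.206), and Dcn, the small proteoglycan decorin of fibrous tissue, 264.1 ± 50.02 in Mest-KO and 370.2 ± 40.9 in control (-0.47 ± 0.15, adjusted p = 0.323). In both, all Mest-KO arrays lay below all control arrays. Prelp differed by 0.32 ± 0.17 in the other direction (adjusted p = 0.611), also without overlap, at 49.4 to 70.9 in Mest-KO and 39.4 to 45.6 in control. Col10a1 and Mmp13, which mark hypertrophic cartilage, were at or below background on every array. Of the 25 other genes of chondroitin and heparan sulfate synthesis tested, 0 passed in either direction at an unadjusted p under 0.05. The 4 with the smallest p were Xylt2 (0.38 ± 0.21), B3galt6 (-0.20 ± 0.12), Ext1 (-0.13 ± 0.08) and Chsy1 (-0.11 ± 0.08), and the adjusted p of each was at least 0.632. Of the 25, 1 separated downward (Ext1, 1181 to 1319 in Mest-KO and 1323 to 1401 in control) and 0 upward. Over all genes 5.22% and 9.32% did.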

How the data were processed

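Per the submitters' processing notes, the authors used Affymetrix Expression Console 1.1, and the deposited numbers are linear-scale probe set intensities. How probe sets were summarized and background-corrected is not given in the sources used here. Without the outer 2% of probe sets each array had a mean of 500.002, so the arrays were scaled to a common mean, and array medians were 59.954 to 70.6371. The number of arrays limits the precision.

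Control probe sets (64) were left out. Of 45101 probe sets, 34945 had 1 gene symbol, 932 had several genes and 9160 were unlisted, and the last 2 kinds were not used. Symbols were checked by Entrez ID against RefSeq names. The brightest probe set over the 6 arrays stood for each gene, tested where its mean exceeded the 30th percentile (intensity 13.3). Groups came from the sample labels, which call the arrays biological replicates. Log2(intensity + 16) was fitted across all genes, and separately across all probe sets, with limma 3.58.1 in R 4.3.3 (genotype alone, eBayes with trend, two-sided, Benjamini-Hochberg at 0.05). Single genes also had two-sided exact permutation tests. The fit was tested on simulated data. All members were named, with full values for Sox9, Col2a1 and Acan and for any with an unadjusted p under 0.05 or separate groups; in other lists, up to 4 genes with the smallest p were named. Other members given in full, the probe sets of Sox9, Sox5, Sox6, Trps1, Runx3, Hapln1, Matn3, Wwp2 and Ibsp, and Mef2c, Snai2 and Arid5a were chosen after their values were seen. Alternatives covered scaling, filter, pseudocount, probe set, moderation, array weights, replicate block, a neural tube covariate and leaving out arrays. The members and lists were chosen with earlier results of these data known.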

Additional observations from a re-analysis of the deposited data

How the results depend on the processing

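Over 18 alternatives, of which the 1 without control 1 and control 3 was chosen after seeing the data, 0 of the 26 cartilage genes passed at an adjusted p under 0.05 in any (limma). Of 460 values, 11 had an unadjusted p under 0.05, from 4 genes (Scrg1, Sox6, Acan and Col11a1). At that unadjusted level 1 gene was higher with pseudocount 64, with eBayes without trend and with the replicate block, 1 was lower with arrays centred on their medians, 1 was higher and 1 lower with the mean of all probe sets, and leaving out single arrays gave 0 to 1 higher and 0 to 2 lower. The median of the early genes (0.02) turned to -0.012 with quantile normalization, -0.041 with arrays centred on their medians and -0.0080 with the mean of all probe sets, and ran from -0.027 to 0.056 without single arrays. The median of the later matrix genes (-0.08) was 0.13 with the neural tube covariate, and that of the 2 sulfation genes (-0.11) was 0.29 with that covariate and 0.14 without control 1 and control 3 (-0.24 without control 2, -0.23 without Mest-KO 2, -0.036 without control 1, -0.067 without control 3 and -0.0038 without Mest-KO 3), where the lone control array left in that setting is assumed to vary like the others. Calls over all genes (12 higher, 9 lower) were 22 and 56 with arrays centred, 0 and 2 with no filter, 1 and 5 with the mean of probe sets, 0 and 1 without trend, 15 and 15 with array weights, 3 and 6 with the replicate block, 2 and 2 with the neural tube covariate, 3 and 2 without control 1 and control 3, and 0 to 21 and 2 to 63 without single arrays. The labels number the replicates without saying whether they were paired. Deviations of same-numbered arrays had correlations of -0.03, -0.11 and -0.15, and those of differently numbered arrays ran from -0.15 to 0.24. With 3 arrays a group these values cannot settle whether the arrays were paired. The causes were not tested. Dim genes limit what can be seen: Nkx3-2 and Chst3 were never above background, and intervals past 1.5-fold belonged to 7 of 26 genes with a pseudocount of 16, 11 of 27 with 4 and 1 of 26 with 64.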

Other observations

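Bone and cartilage share factors, and 7 osteoblast genes could be read besides the members. The one with the smallest p was Msx2, a homeobox target of BMP signalling in skull mesenchyme, which read 648.6, 597.3 and 589.9 in Mest-KO, all below the 835.6, 801.2 and 844.5 of control (log2 difference -0.43 ± 0.10, SE; limma, adjusted p = 0.165). Dmp1, a matrix protein of bone, read 54.3, 85.8 and 21.6 in Mest-KO and 144.5, 24.9 and 137.1 in control, high on control 1 and control 3 as Acan was (-0.63 ± 0.49, adjusted p = 0.758). The probe set used for Dmp1 is of the kind whose probes may match other transcripts too. A probe set that the annotation gives to both Phactr1 and Chst11 averaged 202.1 ± 39.3 in Mest-KO and 163.7 ± 35.1 in control (SD, n = 3 each) and entered no comparison.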
